A study of Mus musculus with 24 samples.

Results

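The basement membrane genes described here are 3 laminin alpha chains (Lama2, Lama4 and Lama5), the beta chains Lamb1 and Lamb2, the gamma chain Lamc1, the nidogens Nid1 and Nid2, and the heparan sulfate proteoglycans perlecan (Hspg2) and agrin (Agrn). They were chosen by name, 10 of the 24972 genes in the expression table, and all 10 passed the filter on low values. Messenger RNA was sequenced as stranded libraries from the left ventricular free wall of C57Bl6/J mice of both sexes, in 8 groups of 3 libraries. The groups carried the following labels. MHS day 28 is metabolo-hypertensive stress, which the treatment tags spell AngII + HFD (angiotensin II and a high-fat diet), and its reference is Control day 28. MHS + RR day 56 is the group labelled for left ventricle reverse remodeling after MHS, and its reference is Control day 56. Every group exists in males and in females, and all mice shared the C57Bl6/J background. The labels give no age, no dose and no account of how RR was brought about. The time and treatment tags of 12 libraries, those titled MHS day 28 and Control day 56, contradict their titles, and the groups here follow the titles and the group tag.

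A basement membrane is a thin sheet of extracellular matrix, and in the heart it wraps each cardiomyocyte and underlies the endothelium of the capillaries. Laminins are trimers of an alpha, a beta and a gamma chain that assemble into a network at the cell surface, where integrins and dystroglycan bind the alpha chain. Nidogens bridge the laminin network to that of type IV collagen, and perlecan and agrin are large proteins with heparan sulfate chains that bind growth factors and dystroglycan.

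Values are TPM (reads scaled by transcript length and then by the total of the library), so levels can be compared between genes. Fold changes are on the log2(TPM + 1) scale with their standard errors, a difference was called at an adjusted p under 0.05 in limma over 13058 genes, and n = 3 libraries a group throughout. The words rose and fell are used for called differences. Since this is bulk tissue, fewer cells of a type and less RNA per cell cannot be told apart.

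Promoters were available in RefSeq (GRCm38.p6, 250 bases before to 50 after the start) for 7 of the 10 genes. They are shown for Hspg2, Nid1 and Lamb1, which fell in MHS + RR hearts, and for Lamb2, whose level was not called different there, to set the sequences of those that moved together beside a relative that did not pass the test. Capitals mark the GC box GGGCGG on either strand. All lines run 5′ to 3′ along the gene's own strand, which is the plus strand for all 4. Hspg2 lies at chr4:137468553-137468852, Nid1 at chr13:13437352-13437651, Lamb1 at chr12:31265043-31265342 and Lamb2 at chr9:108479612-108479911.
Hspg2: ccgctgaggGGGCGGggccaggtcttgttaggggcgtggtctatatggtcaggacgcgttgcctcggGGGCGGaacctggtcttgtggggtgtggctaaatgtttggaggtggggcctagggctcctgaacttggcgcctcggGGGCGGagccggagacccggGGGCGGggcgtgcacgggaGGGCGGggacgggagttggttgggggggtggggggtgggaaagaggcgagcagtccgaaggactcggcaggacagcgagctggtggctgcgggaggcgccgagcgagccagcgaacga
Nid1: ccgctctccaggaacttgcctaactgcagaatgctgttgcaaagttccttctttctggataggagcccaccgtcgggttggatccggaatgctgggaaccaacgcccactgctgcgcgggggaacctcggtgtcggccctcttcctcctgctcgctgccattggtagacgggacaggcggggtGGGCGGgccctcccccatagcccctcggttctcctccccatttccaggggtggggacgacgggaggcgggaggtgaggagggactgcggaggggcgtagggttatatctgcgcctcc
Lamb1: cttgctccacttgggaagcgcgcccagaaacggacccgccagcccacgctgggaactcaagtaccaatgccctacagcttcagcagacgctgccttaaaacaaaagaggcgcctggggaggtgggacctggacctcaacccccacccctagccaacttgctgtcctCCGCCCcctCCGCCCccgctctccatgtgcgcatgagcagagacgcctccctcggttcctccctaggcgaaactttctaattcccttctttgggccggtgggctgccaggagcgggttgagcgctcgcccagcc
Lamb2: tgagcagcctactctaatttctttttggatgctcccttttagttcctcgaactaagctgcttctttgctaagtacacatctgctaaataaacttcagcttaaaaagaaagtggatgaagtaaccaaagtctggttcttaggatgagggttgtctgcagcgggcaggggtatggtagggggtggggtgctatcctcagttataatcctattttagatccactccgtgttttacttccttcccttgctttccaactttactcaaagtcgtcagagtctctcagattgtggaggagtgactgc

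The Hspg2 window held 5 GC boxes and was 70.3% G + C, that of Lamb1 held 2 at 63.7% and that of Nid1 held 1 at 64.7%. The Lamb2 window held none and was 44.0% G + C. Among 32851 promoters of the same length, 35.7% held at least 1 GC box and the median G + C content was 52.7%. The TATA box TATAAA, searched on both strands, was in none of the 7 promoters and in 13.6% of all. GGAATG on either strand was in that of Nid1 alone and in 14.7% of all. Agrn, which was not called, had GC boxes too, with 12 in the first of its 2 listed windows. Of the genes called only as the mean of both sexes, Lama2 had 1 GC box at 50.3% G + C and Lama5 had 4 at 72.7%. A relation of these sequences to the fold changes was not tested.

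Several libraries stood apart. Female MHS + RR replicate 3 went against its label in part, since 4 Y-linked genes (Eif2s3y, Kdm5d, Uty and Ddx3y) together reached 26.1% of their average in males there, and Xist was at 17.3 TPM. The other female libraries had at most 1.74% and at least 23.8 TPM. Atrial Myl7 was at 625 TPM in female Control day 28 replicate 2 and at 125 TPM in female MHS replicate 3. The GC content and length of transcripts explained over 25% of a library's deviations from the average in 4 libraries. These were male MHS + RR replicate 2 (47.4%), female MHS + RR replicate 2 (29.2%), male Control day 28 replicate 1 (36.8%) and male Control day 56 replicate 1 (35.9%). The 10 genes have long transcripts, between 4876 and 14187 bases, and each was longer than at least 76.2% of the genes tested, so the main results are also given after a correction for GC content and length. The labelled tissue had its defining markers, with Tnnt2 between 9796 and 13868 TPM and Pecam1 between 86.7 and 139 TPM. Sequencing depth is unknown.

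**Figure D1:**
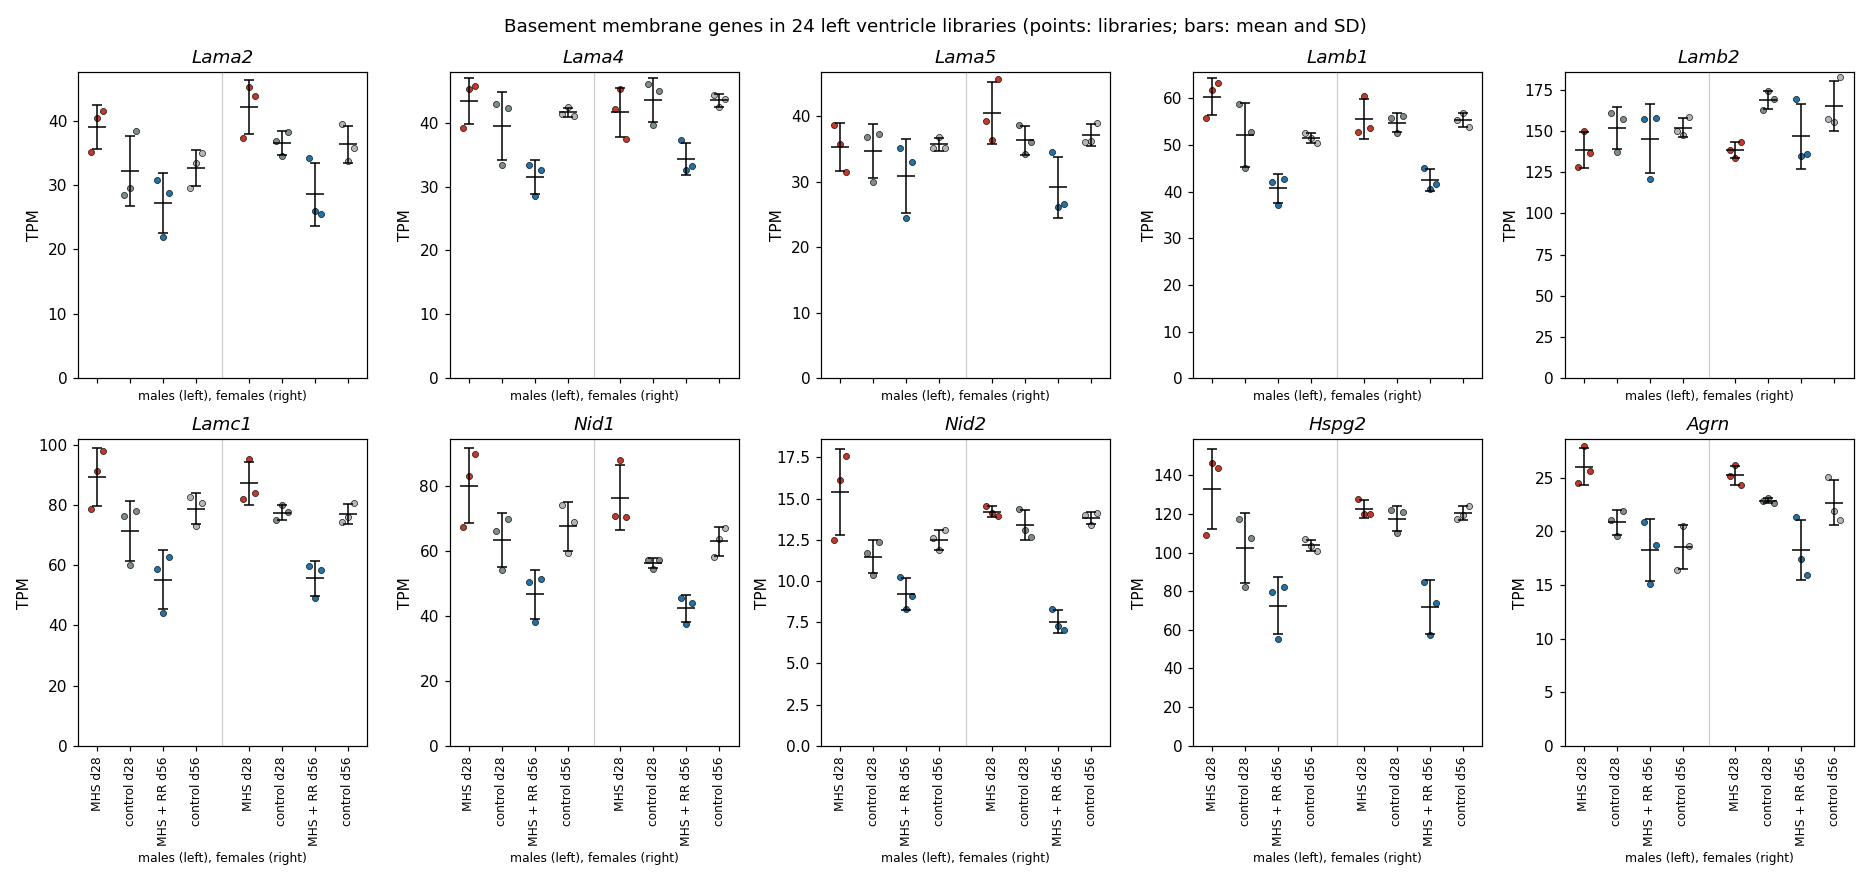
TPM of the 10 genes (vertical axes from 0) in each library, by group, males left and females right in each panel. Points are libraries and bars are the mean and SD of 3 libraries. Nid2 in female MHS + RR hearts lay between 7.03 and 8.31 TPM, below the 13.4 to 14.1 TPM of female controls of day 56.

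Over the 24 libraries, Lamb2 was the most abundant of the 10 genes (151 ± 15.5 TPM, SD), followed by Hspg2 (105 ± 24.1 TPM). Lamc1 averaged 73.9 TPM, Nid1 61.9, Lamb1 51.6, Lama4 39.9, Lama5 35.0, Lama2 34.3, Agrn 21.6 and Nid2 12.2 TPM. The levels of Lama5 and Lama2 differed by less than their SDs of 4.64 and 5.90 TPM. Hspg2 also varied most, with a coefficient of variation of 22.9% and a highest library 2.63 times the lowest, and Lamb2 least, at 10.3%. Male MHS + RR replicate 2 was the lowest library for 8 of the 10 genes, and the exceptions were Nid1 and Nid2.

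After reverse remodeling, the nidogens, perlecan, Lamc1, Lamb1 and Lama4 were lower than in controls of the same day. As the mean of both sexes, 8 of the 10 genes fell and none rose, while 15.5% of all genes tested fell. Nid2, Hspg2, Nid1 and Lamc1 had the lowest values, from -0.64 to -0.49 on the log2 scale. Lamb2 and Agrn were not called. The comparison asks which genes differed from untreated hearts after the stress was followed by remodeling.

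In females alone, 6 of 10 genes fell (Lama4, Lamb1, Lamc1, Nid1, Nid2 and Hspg2), against 4.56% of all genes. In males none was called, and only 0.0919% of all genes were called there in either direction, although 18% had an unadjusted p under 0.05, among them 6 of the 10. All 10 log2 values were negative in each sex. Their median was -0.36 in males and -0.36 in females, while the median of all genes was -0.04 in males and -0.09 in females. The TPM ranges of MHS + RR and control lay apart, with MHS + RR lower, for 6 genes in males and 7 in females, against 15% of all genes in males and 22.7% in females. The split of calls over all genes depended on scaling. It was 71 higher and 596 lower in females as deposited, 104 and 193 after median-of-ratios scaling, and 148 and 152 after the GC and length correction. That correction also subtracts each library's average deviation over the genes it covers, so its even split is in part set by this step.

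The nidogens are taken first. Nid2, the less abundant of the pair, was at 8.31, 7.26 and 7.03 TPM in female MHS + RR hearts, against 13.98, 13.4 and 14.1 TPM in female controls. In males it was at 10.2, 8.27 and 9.11 TPM in MHS + RR hearts, against 12.6, 11.9 and 13.1 TPM in controls. No MHS + RR library reached a control in either sex. The log2 fold change of Nid2 was -0.80 ± 0.10 in females (limma adjusted p = 0.000536), -0.41 ± 0.10 in males (adjusted p = 0.0707) and -0.60 ± 0.07 as the mean of both sexes (adjusted p = 0.000113). In females it was the single call of the 10 that held in all 11 alternatives and without each of the 24 libraries, where it lay between -0.86 and -0.76. Without female MHS + RR replicate 3, the library with Y-linked reads, or without replicate 2 it was still called.

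Nid1 was at 45.5, 37.5 and 43.9 TPM in female MHS + RR hearts, against 58.1, 63.5 and 67.05 TPM in controls. In males it was at 50.5, 37.98 and 51.3 TPM in MHS + RR hearts, against 74.2, 59.3 and 68.9 TPM in controls. The ranges lay apart in both sexes, and the lowest library of each sex was MHS + RR replicate 2. Nid1 fell in females (-0.56 ± 0.13, adjusted p = 0.0191) and as the mean of both sexes (-0.55 ± 0.09, adjusted p = 0.00113), with -0.53 ± 0.13 in males (adjusted p = 0.0685). Of the summed nidogen TPM, Nid1 made up 83.4 ± 1.43% in male MHS + RR hearts against 84.3 ± 1.09% in male controls, and 84.8 ± 1.24% in female MHS + RR hearts against 81.9 ± 1.16% in female controls (SD). These shares are a description without a test.

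Perlecan mRNA (Hspg2) was at 84.99, 57.1 and 73.7 TPM in female MHS + RR hearts, against 117, 119 and 124 TPM in controls. In male MHS + RR hearts it was at 79.8, 55.5 and 82.2 TPM, against 107, 103 and 101 TPM in controls. The ranges did not overlap in either sex, and replicate 2 was again the lowest in both. Hspg2 fell in females (-0.75 ± 0.15, adjusted p = 0.00947) and as the mean of both sexes (-0.64 ± 0.11, adjusted p = 0.00105). In males it was at -0.53 ± 0.15 (adjusted p = 0.101). The female call was lost without female MHS + RR replicate 2 (-0.60, adjusted p = 0.08).

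Lamc1 codes for the gamma chain of most laminins. It was at 59.6, 48.98 and 58.4 TPM in female MHS + RR hearts, against 74.2, 75.99 and 80.5 TPM in controls, and at 58.8, 43.96 and 62.5 TPM in male MHS + RR hearts, against 82.7, 72.9 and 80.6 TPM in controls. All 6 MHS + RR libraries were below all 6 controls. Lamc1 fell in females (-0.46 ± 0.12, adjusted p = 0.0302) and as the mean of both sexes (-0.49 ± 0.08, adjusted p = 0.00122), with -0.52 ± 0.12 in males (adjusted p = 0.0665).

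The beta chains differed in their values. Lamb1 was at 45.1, 40.5 and 41.7 TPM in female MHS + RR hearts, against 55.3, 56.9 and 53.8 TPM in controls, and at 42.1, 37.2 and 42.7 TPM in male MHS + RR hearts, against 52.5, 51.4 and 50.3 TPM in controls. No MHS + RR library overlapped the controls. Lamb1 fell in females (-0.38 ± 0.08, adjusted p = 0.0158) and as the mean of both sexes (-0.35 ± 0.06, adjusted p = 0.00105), with -0.33 ± 0.08 in males (adjusted p = 0.0703). Lamb2, the beta chain typical of vessels, muscle and synapses, was at 169, 135 and 136 TPM in female MHS + RR hearts, against 157, 155 and 183 TPM in controls. In males Lamb2 was at 157, 121 and 158 TPM in MHS + RR hearts, against 149.8, 148 and 158 TPM in controls. Its ranges overlapped in both sexes, and its value as the mean of both sexes was -0.12 ± 0.07 (adjusted p = 0.237).

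Among the alpha chains, Lama4, found mostly in vessels, was at 37.2, 32.6 and 33.2 TPM in female MHS + RR hearts, against 44.3, 42.4 and 43.7 TPM in controls. In males Lama4 was at 33.4, 28.5 and 32.6 TPM in MHS + RR hearts, against 41.4, 42.4 and 41.1 TPM in controls. The ranges lay apart in both sexes. Lama4 fell in females (-0.33 ± 0.10, adjusted p = 0.0473) and as the mean of both sexes (-0.36 ± 0.07, adjusted p = 0.00208), and the female call was lost without 15 of the 24 libraries left out in turn. Lama2, the chain of the muscle fibre basement membrane whose loss causes a congenital muscular dystrophy, averaged 28.6 ± 4.92 TPM in female MHS + RR hearts against 36.3 ± 2.93 TPM in controls, and 27.2 ± 4.63 TPM in male MHS + RR hearts against 32.7 ± 2.82 TPM in controls (SD). Lama5 averaged 29.1 ± 4.69 TPM in female MHS + RR hearts against 37.1 ± 1.64 TPM in controls, and 30.9 ± 5.63 TPM in male MHS + RR hearts against 35.8 ± 0.983 TPM in controls. Both were called only as the mean of both sexes, Lama2 at -0.31 (adjusted p = 0.0291) and Lama5 at -0.28 (adjusted p = 0.0321), and both calls were lost in 6 of 11 alternatives.

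Agrin, known for clustering acetylcholine receptors at the neuromuscular junction, was at 21.3, 17.4 and 15.97 TPM in female MHS + RR hearts, against 25.1, 21.9 and 21.04 TPM in controls. Male values were 20.9, 15.1 and 18.8 TPM in MHS + RR hearts, against 16.4, 20.5 and 18.6 TPM in controls. The groups overlapped in both sexes, and Agrn was not called in females (-0.30 ± 0.11, adjusted p = 0.106), in males (-0.03 ± 0.11) or as the mean of both (-0.16 ± 0.08, adjusted p = 0.149).

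**Figure D2:**
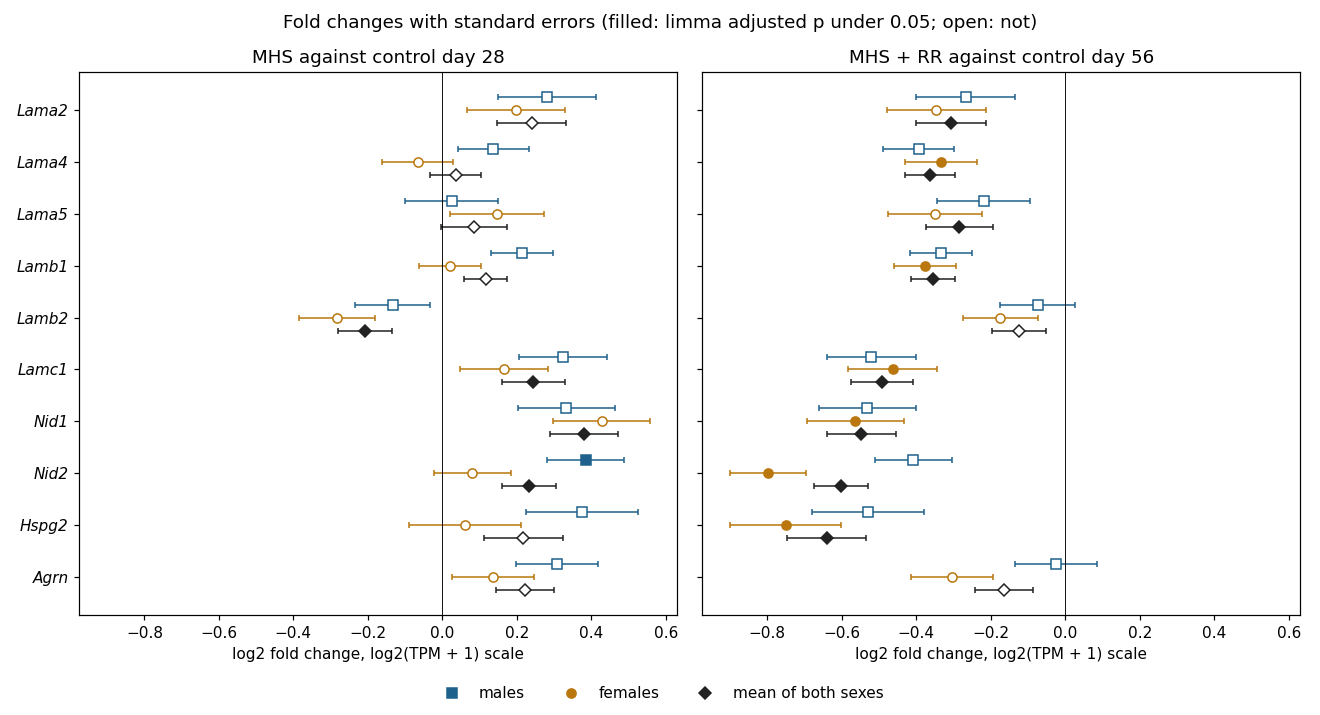
Log2 fold changes (horizontal axes, log2(TPM + 1) scale) of the 10 genes with standard errors, MHS against control of day 28 on the left and MHS + RR against control of day 56 on the right, for males, females and the mean of both sexes. Filled symbols are called by limma. All 30 values on the right lie below 0, and 14 of them are called.

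With the correction for GC content and length, 6 genes still fell as the mean of both sexes, against 5.18% of all genes. These were Nid2 (-0.43), Hspg2 (-0.40), Nid1 (-0.37), Lamc1 (-0.29), Lama4 (-0.19) and Lamb1 (-0.18), with the highest limma adjusted p at 0.0391 for Lama4. The same 6 were called in all 11 alternatives and without each of the 24 libraries. In females the correction left Nid2 (-0.60, adjusted p = 0.000957) and Hspg2 (-0.45, adjusted p = 0.034), while 1.16% of all genes fell. The median of the 10 genes became -0.15 in females and -0.21 in males, with that of all genes at 0.00 in both. Leaving out the 4 libraries named above together gave -0.56 for Nid2, -0.46 for Hspg2 and -0.40 for Nid1 as the mean of both sexes, and again 6 calls, against 1.45% of all genes lower. Lamb2 and Agrn, not called either way, changed sign with the correction (0.07 and 0.05).

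**Figure D3:**
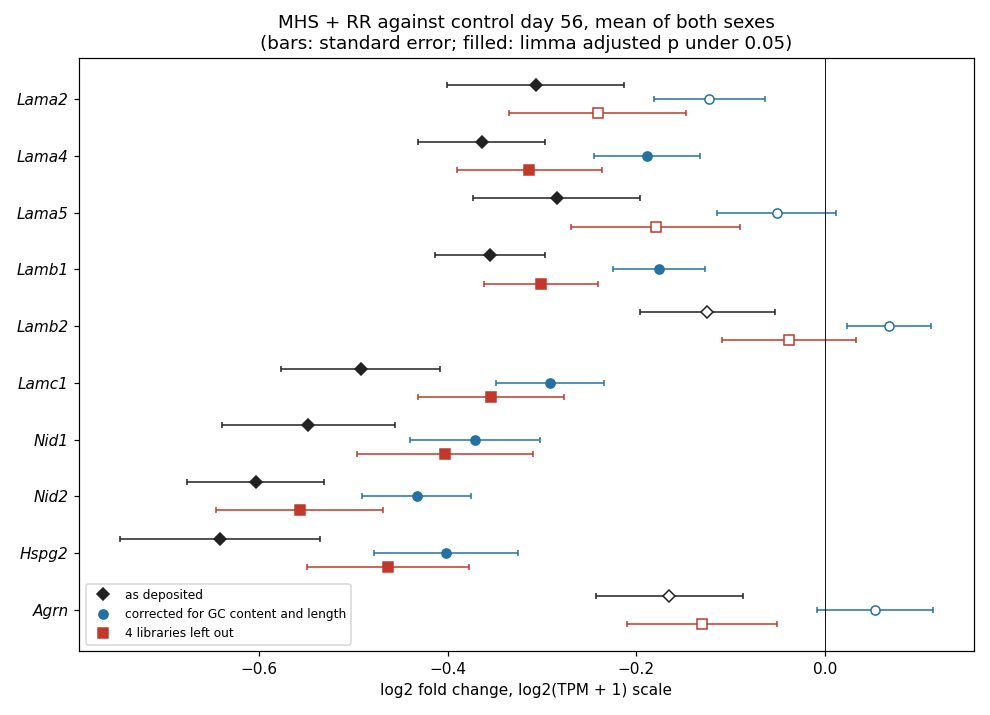
Log2 fold changes (horizontal axis, log2(TPM + 1) scale, with standard errors) of MHS + RR against control of day 56, as the mean of both sexes, from the values as deposited, after the GC and length correction, and without the 4 libraries most related to GC content and length. Filled symbols are called by limma. Nid2 was at -0.60, -0.43 and -0.56, and Lamb2 was open in all 3.

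Under MHS at day 28 the pattern was different. As the mean of both sexes, Nid1, Lamc1 and Nid2 rose and Lamb2 fell, 4 of 10 genes, while 17.8% of all genes were called. In males Nid2 alone was called (1 of 10, against 7.71% of all genes higher), and in females none was, where 5.76% of all genes were called. In males 7 of the 10 had an unadjusted p under 0.05, against 24.1% of all genes, and in females 2 of the 10, against 18.3%. The median of the 10 genes was 0.29 in males and 0.11 in females, beside 0.08 and 0.00 for all genes. The question here is what the stress itself did to these genes.

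Nid1 was at 67.4, 82.9 and 89.8 TPM in male MHS hearts, against 66.001, 53.99 and 69.9 TPM in male controls, where the ranges overlapped. In female MHS hearts it was at 70.7, 87.8 and 70.3 TPM, against 57.1, 54.3 and 57.02 TPM in controls, and all 3 MHS libraries were above all controls. Its log2 fold change was 0.33 ± 0.13 in males (adjusted p = 0.114), 0.43 ± 0.13 in females (adjusted p = 0.0575) and 0.38 ± 0.09 as the mean of both sexes (adjusted p = 0.00606). Of the 4 calls in the mean of both sexes, that of Nid1 was the one that held in all 11 alternatives and without each library.

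Nid2 was at 12.5, 16.1 and 17.6 TPM in male MHS hearts, against 11.7, 10.4 and 12.3 TPM in controls, and the lowest MHS library lay just above the highest control. In female MHS hearts Nid2 was at 14.6, 14.1 and 13.9 TPM, against 14.4, 13.1 and 12.7 TPM in controls, which overlapped. Nid2 rose in males (0.39 ± 0.10, adjusted p = 0.0203) and was at 0.08 ± 0.10 in females (adjusted p = 0.806). The male call was lost without male Control day 28 replicate 2, male MHS replicate 2 or male MHS replicate 3 (adjusted p up to 0.137). The female minus male difference of the effect was -0.30 ± 0.15 and was not called (adjusted p = 0.964).

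Lamc1 was at 78.7, 91.4 and 97.7 TPM in male MHS hearts, against 76.3, 59.9 and 77.8 TPM in controls, and at 82.1, 95.4 and 83.9 TPM in female MHS hearts, against 74.8, 79.9 and 77.6 TPM in controls. The ranges lay apart in both sexes. Lamc1 rose only as the mean of both sexes (0.24 ± 0.08, adjusted p = 0.0493), at the edge of the threshold, and the call was lost without 18 of the 24 libraries left out in turn. Lamb2 moved the other way. It was at 138, 134 and 143 TPM in female MHS hearts, against 163, 174 and 169 TPM in controls, with every MHS library lower. In male MHS hearts Lamb2 was at 128, 149.9 and 137 TPM, against 161, 137 and 157 TPM in controls, and the ranges overlapped. Its fold change was -0.21 ± 0.07 as the mean of both sexes (adjusted p = 0.0488), and that call was lost without 16 of the libraries and without the 4 libraries related to GC content. With the GC and length correction Lamb2 fell in each sex (-0.28 in males, adjusted p = 0.00541, and -0.28 in females, adjusted p = 0.00676).

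The other genes were not called in either sex. In males Hspg2 was at 109, 146 and 143 TPM in MHS hearts, against 117, 82.3 and 108 TPM in controls (0.38 ± 0.15, adjusted p = 0.123), and Agrn was at 24.5, 27.9 and 25.7 TPM, against 21.04, 19.5 and 21.9 TPM in controls (0.31 ± 0.11, adjusted p = 0.0827). Male Control day 28 replicate 2 was the lowest of the 6 libraries for Hspg2. Leaving out the 4 libraries related to GC content brought the male calls to 4 of 10, against 6.22% of all genes higher in that fit, namely Lamb1 (0.30), Lamc1 (0.38), Nid2 (0.40) and Hspg2 (0.48), whereas the GC and length correction took Hspg2 to 0.17. The male values of these genes under MHS depended on the libraries used and on the correction.

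The make-up of each chain class was also followed as a share of its summed TPM. Lamb1 made up 30.3, 29.2 and 31.7% of the beta chain TPM in male MHS hearts, against 26.8, 24.7 and 25.1% in controls, and 27.6, 31.2 and 27.2% in female MHS hearts, against 25.5, 23.1 and 24.96% in controls. In male MHS + RR hearts it made up 21.2, 23.5 and 21.3%, against 25.9, 25.8 and 24.1% in controls, and in female MHS + RR hearts 21.002, 23.1 and 23.5%, against 26.02, 26.8 and 22.7% in controls. All MHS libraries were above their controls, all male MHS + RR libraries were below theirs, and the female MHS + RR libraries overlapped theirs. Among the alpha chains, group means lay between 29.7% and 33.9% for Lama2, between 33.5% and 37.8% for Lama4 and between 30.04% and 34.4% for Lama5. No test was made on shares.

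**Figure D4:**
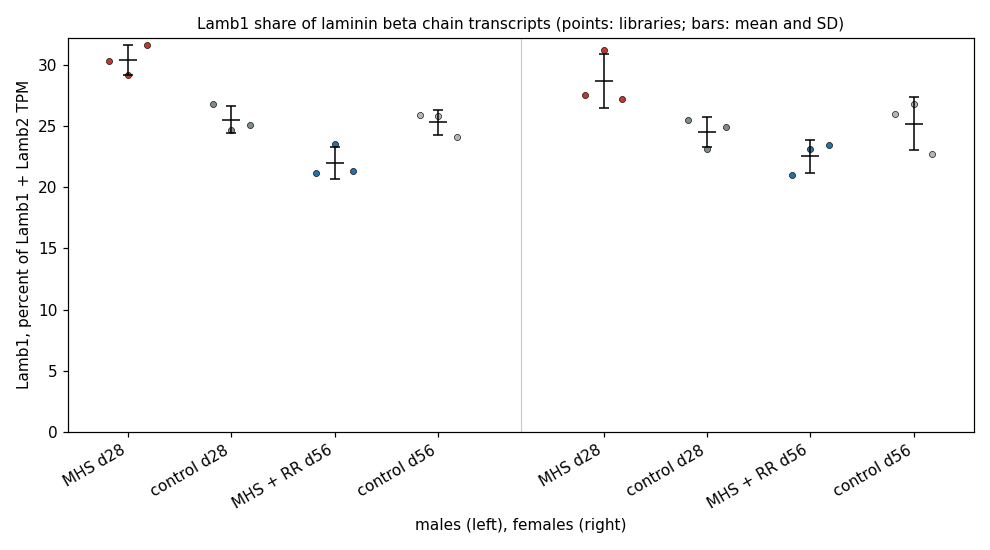
Lamb1 as a percent of the summed TPM of Lamb1 and Lamb2 (vertical axis from 0), by group, males left and females right. Points are libraries and bars the mean and SD of 3. The mean was 30.4 ± 1.23% in male MHS hearts against 25.5 ± 1.11% in controls, and 21.99 ± 1.33% in male MHS + RR hearts against 25.3 ± 1.02% in controls.

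Set against MHS hearts of day 28 directly, MHS + RR hearts of day 56 were lower for 8 of 10 genes in each sex, while 16.2% of all genes fell in males and 9.8% in females. The libraries of this contrast also differ in day. Nid2 had the lowest value in females (-0.84 ± 0.10, adjusted p = 5.91e-05) and Hspg2 in males (-0.87 ± 0.15, adjusted p = 0.000625). Lamb2 was not called in males (0.06 ± 0.10) or in females (0.07 ± 0.10). Lama5 was not called in males (-0.20 ± 0.13), nor Lama4 in females (-0.27 ± 0.10, adjusted p = 0.0748). The female count was 5 without female MHS + RR replicate 2 and 5 without replicate 3, and Lamc1, Nid1, Nid2 and Hspg2 were called in every alternative and without each library.

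The effect after reverse remodeling minus the effect under MHS, each against its own controls, was below 0 and called for 6 of 10 genes in males (7.21% of all genes were called lower) and for 3 of 10 in females (2.08%). Nid2 was at -0.79 ± 0.15 in males (adjusted p = 0.0043) and -0.88 ± 0.15 in females (adjusted p = 0.00327), called in all alternatives and without each library. Nid1 was at -0.86 ± 0.18 in males (adjusted p = 0.00876) and -0.99 ± 0.18 in females (adjusted p = 0.00606). Hspg2 was at -0.91 ± 0.21 in males (adjusted p = 0.0142) and -0.81 ± 0.21 in females (adjusted p = 0.0452). The female call of Hspg2 was lost without 16 of the 24 libraries left out in turn (adjusted p up to 0.136) and in 5 of 11 alternatives, and the male call without male Control day 28 replicate 2 (adjusted p = 0.0515). Lama4, Lamb1 and Lamc1 were called in males, and the call of Lama4 was lost without 4 of the libraries. Lamb2 had the value nearest 0 in both sexes, 0.06 ± 0.14 in males and 0.11 ± 0.14 in females.

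The sexes were not shown to differ. No member had a called female minus male difference of the MHS effect or of the MHS + RR effect, where 0.00766% (1 gene) and 0% of all genes were called. At an unadjusted p under 0.05, 1 of the 10 differed in each (4.32% of all genes for MHS and 3.52% for MHS + RR), and it was Nid2 in both, with -0.30 ± 0.15 for MHS and -0.39 ± 0.15 for MHS + RR. In controls, none of the 10 differed between females and males (1.23% of all genes were called). The values ran from -0.13 ± 0.09 for Nid1 to 0.21 ± 0.11 for Hspg2. Between controls of day 56 and day 28, none of the 10 and 0% of all 13058 genes were called in either sex by limma. At an unadjusted p under 0.05 there were 391 genes (2.99%) in males and 500 (3.83%) in females, and none was one of the 10. Among the 10 genes in controls, the values between the days ran from -0.17 for Agrn in males to 0.16 for Nid1 in females.

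The type IV collagen network is the partner of laminin in the basement membrane. Its genes were followed in a list with Col15a1 and Col18a1, which are not type IV chains. Calls in this list were higher under MHS and lower after reverse remodeling. As the mean of both sexes, Col4a3 (0.48) and Col4a5 (0.45) rose under MHS and were not called after reverse remodeling. In MHS males, where 7.71% of all genes rose, 6 of 7 basement membrane collagens tested rose and none fell. Among them were Col15a1 (0.71), Col4a1 (0.67), Col4a2 (0.63) and Col18a1 (1.15), while in MHS females none was called. The list's median was 0.63 in MHS males and 0.36 in MHS females, beside 0.08 and -7.01e-05 for all genes. As the mean of both sexes under MHS, 6 of 7 rose, against 11.6% of all genes. None had a called female minus male difference of the MHS effect, where 0.00766% of all genes were called. In MHS + RR females 4 of 7 fell, against 4.56% of all genes, namely Col15a1 (-1.24, limma adjusted p = 7.64e-05), Col4a1 (-0.96), Col4a2 (-0.77) and Col4a4 (-0.72). In MHS + RR males none was called. The list's median was -0.72 in MHS + RR females and -0.30 in MHS + RR males, beside -0.09 and -0.04 for all genes.

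Of 8 laminin receptor genes, Itgb1 (0.42), Itga6 (0.50) and Itgb4 (0.53), all integrin subunits, rose in MHS males, and none was called in MHS females. The list's median was 0.17 in MHS males and 0.07 in MHS females, and none of the 8 had a called difference of the MHS effect between the sexes. In MHS + RR females Itga6 fell (-0.56) and Rpsa, which codes for a ribosomal protein also described as a laminin receptor, rose (0.20), and in MHS + RR males none was called. Dystroglycan itself (Dag1) was not called in MHS + RR males (-0.35 ± 0.11, adjusted p = 0.123) or females (-0.23 ± 0.11, adjusted p = 0.222) alone, and fell as the mean of both sexes (-0.29 ± 0.08, adjusted p = 0.0161). Of the 11 genes of the dystrophin-glycoprotein complex, Dtna was among those that rose in both sexes under MHS (0.23 in males and 0.43 in females), Sgca fell in MHS males (-0.22), and none was called in MHS + RR hearts of either sex alone, while Dag1 and Sgca (-0.12) fell there as the mean of both sexes.

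Of 12 enzymes that glycosylate dystroglycan, which laminin needs for binding, Pomgnt2 (-0.37) and B4gat1 (-0.21) fell in MHS + RR females and none was called in MHS + RR males. Among 12 genes of heparan sulfate synthesis and sulfation, the extracellular sulfatases Sulf1 (1.04) and Sulf2 (0.58) rose in MHS males and Sulf1 (0.75) in MHS females. In MHS + RR females Ext2, which builds the chain, fell (-0.30), and in MHS + RR males none was called.

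Of 12 other basement membrane proteins tested, Fbln2 and Sparc rose under MHS in males (Fbln2 0.77, Sparc 0.96) and in females (Fbln2 0.81, Sparc 0.91), and Egflam fell in both (-0.36 in males and -0.45 in females). In MHS + RR females Smoc2 (-0.67), Sparc (-0.76) and the collagen IV crosslinking enzyme Pxdn (-0.77) fell, and in MHS + RR males none was called. Of the other laminin chains and netrins, 5 of 8 were tested, with no call in MHS + RR hearts of either sex or as the mean of both. Lama1 reached at most 0.0260 TPM in any library.

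Markers of several cell types moved with these genes after reverse remodeling, and others did not. Of 12 endothelial markers, 5 fell in MHS + RR females, where 4.56% of all genes fell, among them Cldn5 (-1.26), Pecam1 (-0.35) and Cdh5 (-0.48). None was called in MHS + RR males. Their summed TPM lay between 668 and 747 in MHS + RR females against 821 and 965 in controls, and between 708 and 798 in MHS + RR males against 812 and 903 in controls. Their median log2 value was -0.32 in MHS + RR females and -0.21 in MHS + RR males, beside -0.36 in both for the 10 basement membrane genes. In MHS + RR females 1 of 10 mural markers (Pdgfrb, -0.42) and 2 of 11 fibroblast markers (Col1a1, -1.13, and Pdgfra, -0.50) fell. Fibroblast sums lay between 888 and 1087 TPM in MHS + RR females against 1029 and 1187 in controls. In MHS + RR males these sums lay between 847 and 1144 TPM against 961 and 1090 in controls, a range that spanned that of the controls. The mural list had a median of 0.18 in MHS + RR males and -0.26 in MHS + RR females, and its sums lay between 713 and 877 TPM in MHS + RR males against 558 and 806 in controls, and between 695 and 827 in MHS + RR females against 798 and 909 in controls. Mural sums in males thus did not go the way of the 10 genes.

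As the mean of both sexes, 7 of 12 endothelial, 4 of 11 fibroblast, 2 of 10 mural and 5 of 8 macrophage markers fell in MHS + RR hearts, and none of these lists had a marker that rose. Of all genes 15.5% fell in that comparison, and the mural count was near that share. The macrophage genes were Adgre1 (-0.44), Csf1r (-0.41), Cd68 (-0.36), C1qb (-0.33) and C1qa (-0.30), and the list's median was -0.32. None of the 8 was called in either sex alone. Their sums lay between 204 and 236 TPM in MHS + RR females against 232 and 305 in controls, and between 209 and 266 in MHS + RR males against 268 and 360 in controls. Of the markers of ventricular cardiomyocytes and mesothelium, Ryr2 (-0.39) and Wt1 (-0.57) fell, and none of those of Schwann cells, adipocytes and atrial cells was called.

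Under MHS, fibroblast markers rose, 7 of 11 in males and 6 of 11 in females, while 7.71% of all genes rose in males and 3.4% in females. Among these markers were Lum (1.31 in males and 0.65 in females) and Postn (2.47 in males and 2.39 in females). Their sums lay between 1466 and 1563 TPM in MHS males against 843 and 982 in controls, and between 1316 and 2349 in MHS females against 992 and 1230 in controls. The endothelial sums lay between 859 and 984 TPM in MHS males against 786 and 880 in controls, and between 779 and 834 in MHS females against 789 and 867 in controls. Cardiomyocyte marker sums were lower under MHS in both sexes. They ran from 81689 to 84590 TPM in MHS males against 93355 to 99450 in controls. In MHS females they ran from 82771 to 90248 TPM against 95977 to 102213 in controls. The single cardiomyocyte markers were mixed. As the mean of both sexes, 3 of 9 fell (Tnnt2, -0.23, Tnni3, -0.40, and Myl2, -0.40), 1 rose (Actn2, 0.35) and 5 were not called. The mean log2 level of the list overlapped between MHS hearts and controls in each sex. As the mean of both sexes under MHS, 2 of 8 macrophage markers rose (Cd68, 0.36, and Lyve1, 0.40), while 11.6% of all genes rose and 6.24% fell. Nppa (1.70) rose and was the only gene of the atrial list that was called. In male MHS replicate 2 the atrial sum was 1074 TPM with Myl7 and Sln at 0 TPM. The Schwann cell marker Sox10 (-0.44) and the mesothelial markers Msln (-0.85) and Upk3b (-1.04) fell as the mean of both sexes. In the same comparison 2 of 12 endothelial markers rose, and of 10 mural markers 3 rose and 2 fell. No defining endothelial, fibroblast or cardiomyocyte marker was at 0. The part of these cell types in the changes of the 10 genes was not tested.

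**Figure D5:**
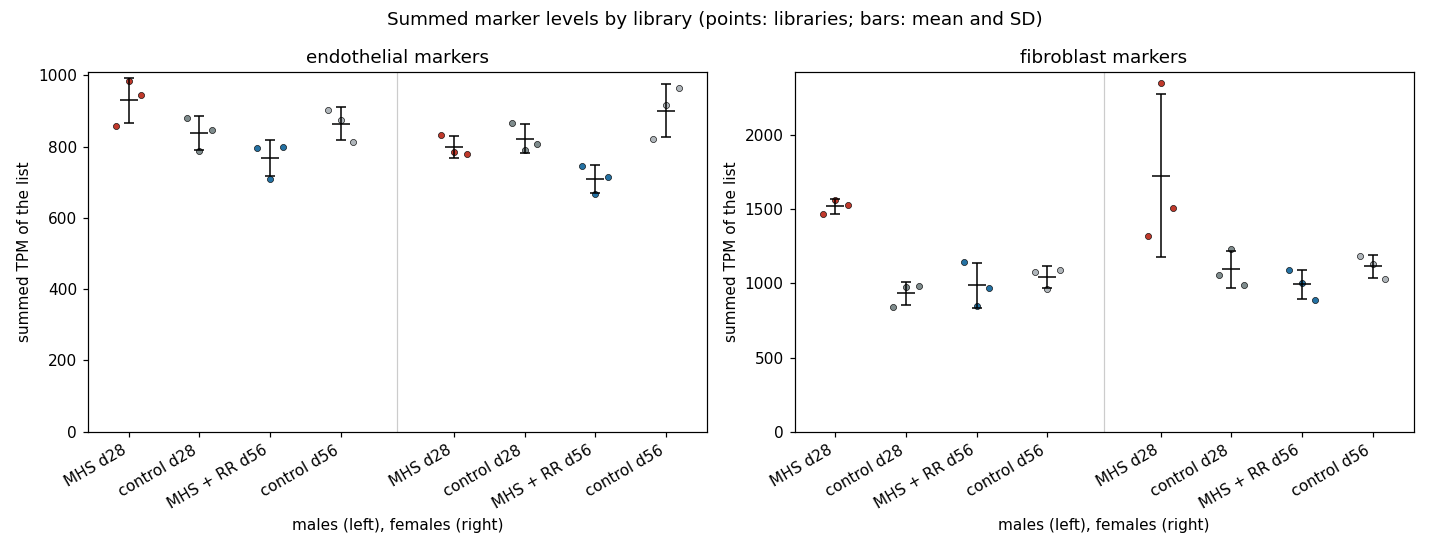
Summed TPM (vertical axes from 0) of 12 endothelial markers and 11 fibroblast markers in each library, by group, males left and females right in each panel. Points are libraries and bars the mean and SD of 3. Endothelial sums of female MHS + RR hearts (668 to 747 TPM) lie below those of female controls of day 56 (821 to 965 TPM), and fibroblast sums of male MHS hearts (1466 to 1563 TPM) lie above those of male controls of day 28 (843 to 982 TPM).

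Among the genes with the most similar pattern over the 24 libraries, by Pearson's r to the mean of the 10 standardised genes, were Itpripl2 (0.96), Sh3pxd2a (0.96), Ctnnd1 (0.95) and Tet3 (0.95). Gene by gene, the closest were Col15a1 for Nid2 (0.95), Msn for Nid1 (0.94), Sh3pxd2a for Hspg2 (0.97), Plec for Lamc1 (0.96) and Itpripl2 for Lamb1 (0.94). For the alpha chains they were Hivep2 for Lama2 (0.95), Ctnnd1 for Lama4 (0.93) and Zswim8 for Lama5 (0.85), and Dock6 was closest to Agrn (0.92). Lamb2, whose correlations with the other members ran from 0.07 for Nid1 to 0.45 for Lama5, had Fto (0.91). These correlations are a description, and the libraries share groups and a relation to GC content and length.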

How the data were processed

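Left ventricular RNA was extracted with TRIzol and made into stranded mRNA libraries. The authors deposited 1 table of TPM with 24972 gene symbols and 24 columns, and the submitters' processing notes name STAR, Salmon and mm9 without versions. Each column sums to 1e+06, so depth is unknown and no counting error can be given. No 2 libraries were identical.

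Groups followed the sample titles and the group tag. By the contradicting time and treatment tags of 12 libraries, the titled MHS contrast would set day 56 against day 28 controls, and the titled MHS + RR contrast would set MHS + RR against MHS.

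The 13058 genes that reached a TPM of 1 in 3 or more libraries were tested. limma 3.58.1 in R 4.3.3 was fitted on log2(TPM + 1) with 8 group means (lmFit, contrasts.fit, eBayes with a trend, 16 residual degrees of freedom) for 15 two-sided comparisons, with Benjamini-Hochberg adjustment over all genes. Such fold changes are understated for genes of low TPM. The labels do not say that libraries came from separate mice, so a p-value reflects no more than the spread among the libraries, which may be technical. On simulated data for MHS males (13058 genes), 48% of changes of 0.5 and 90% of changes of 1 on the log2 scale were recovered, with 7.38% false calls.

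Alternatives were a pseudocount of 0.1, no filter, a TPM floor of 5, median-of-ratios scaling, quantile normalization, a spline correction of each library for GC content and length (GENCODE annotation, 99% of genes tested), array weights, a fit of the compared groups only, the replicate number as a block with and without that correction, and each library left out in turn. The spline correction has an intercept, so it also subtracts each library's average deviation and thereby rescales the libraries. Leaving out the 4 libraries most related to GC content and length was added after seeing the data. Same-numbered libraries deviated together only between male controls of day 56 and day 28 (correlations of 0.57, 0.26 and 0.22), where no call depended on the block.

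The members and gene lists were chosen with earlier results of these data known. All 10 members are named. From each of 16 further lists, at most the 4 genes of lowest p in each single-sex treatment comparison were eligible. Genes named for a call as the mean of both sexes were chosen after their values were seen. Some genes of these lists are not reported here.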

Additional observations from a re-analysis of the deposited data

Results flagged for a closer look

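The effect of MHS + RR against its controls and that of MHS against its controls differed within a sex for some of the basement membrane genes, by the limma test of the difference itself. In males the difference was -0.53 for Lama4, -0.55 for Lamb1, -0.84 for Lamc1, -0.86 for Nid1, -0.79 for Nid2 and -0.91 for Hspg2 on the log2 scale. In females it was -0.99 for Nid1, -0.88 for Nid2 and -0.81 for Hspg2. Across the 11 alternatives, the male calls of Lamc1 and Nid2 and the female calls of Nid1 and Nid2 held throughout, with limma adjusted p up to 0.0407 for Lamc1 in males, 0.0449 for Nid2 in males, 0.0166 for Nid1 in females and 0.0166 for Nid2 in females. The male calls of Lama4 and Lamb1 and the female call of Hspg2 were lost after the GC and length correction. The median of all genes in the male contrast was -0.11 as deposited and 0.02 after median-of-ratios scaling, and the median of the 10 genes was -0.55 and -0.41.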

How the results depend on the processing

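Counts of called members by limma changed by over 1.5 times in some alternatives. For MHS males (1 member called), the count was 0 after quantile normalization and with only the compared groups in the fit, 2 after the GC and length correction, 2 with a replicate block and that correction, 6 with array weights and 4 without the 4 libraries most related to GC content and length. For MHS females (0), it was 1 after median-of-ratios scaling and after quantile normalization, 2 after the correction, 2 with array weights, 1 with the replicate block, 2 with the replicate block and the correction, and 1 without the 4 libraries. For MHS as the mean of both sexes (4), it was 2 without a filter, 2 after quantile normalization and 7 with array weights. For MHS + RR males (0), it was 6 with array weights and 5 with the replicate block. For MHS + RR females (6), it was 2 after the correction, 2 with the replicate block and the correction, and 2 without the 4 libraries. For the effect of MHS + RR minus that of MHS, it was 7 with array weights in females (3 as reported) and 3 with only the compared groups in males (6). For female against male controls (0), it was 4 with array weights.

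Leaving out each library in turn, the count ran from 0 to 3 for MHS males, 0 to 1 for MHS females, 1 to 5 for MHS as the mean of both sexes, 0 to 2 for MHS + RR males and 1 to 9 for MHS + RR females. It ran from 6 to 9 for MHS + RR as the mean of both sexes, 5 to 9 for MHS + RR against MHS in females and 2 to 5 for the difference of effects in females. The MHS + RR count in females was 1 without female MHS + RR replicate 2, 3 without its replicate 3, 2 without female Control day 56 replicate 2 and 3 without control replicate 3. In MHS + RR males it was 2 without MHS + RR replicate 3. No called fold change of a member changed its sign in any alternative. Apart from male controls between the days, replicate numbers showed no pairing over all 3 numbers, and the replicate block changed no other count of members beyond 1.5 times. The limits are 3 libraries a group, unknown depth, the contradicting tags, and the relation of the long transcripts of these genes to library differences in GC content and length. The cause of these changes was not tested.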
